A study of Homo sapiens with 12 samples.

Results

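The transcriptome of SW1783 cells given the highest dose of a herbal water extract was compared with that of cells given the vehicle, across all measured genes. The members were fixed by the sample labels alone and were 6 of the 12 libraries of the series, 3 on each side. SW1783 is an established human astrocytoma line. The high dose libraries came from cells exposed for 24 h to 500 µg/mL of an extract in water of Aconitum carmichaeli Debeaux (ACD). The vehicle libraries came from cells given the vehicle, PBS with 2% DMSO, for 24 h. In the study's methods the extract was dissolved in PBS with 2% DMSO too. The percentage is that of the solution added to the culture medium. The remaining 6 libraries, with the extract at 20 or 100 µg/mL, entered the model so that all groups shared an estimate of the spread, and the 100 µg/mL group, called the medium dose, was also set beside the high dose. Every group is the same cell line, and the labels do not say whether the libraries of a group came from separate cultures, so the p-values measure the spread between these libraries, which may be technical. The protocol text attached to the samples describes another herb, Poria cocos, and the identity of the extract therefore rests on the sample titles and treatment labels.

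Total counts lay between 18959098 and 24200565 over the 6 libraries. Of 14 astrocyte markers, 8 had a mean of at least 10 normalised counts, among them VIM, CD44, CHI3L1, GJA1 and SOX9, while AQP4 and FABP7 were at 0 in all 6 libraries. GFAP, the intermediate filament that defines mature astrocytes, averaged 2.79 normalised counts with vehicle and 1.32 at the high dose, and S100B 2.29 and 0.312. The defining markers of mature astrocytes were thus at or near 0 with either treatment. The astrocyte markers summed to 8715 to 9125 CPM (counts scaled to an equal library total) with vehicle and 8416 to 8481 at the high dose. GFAP, S100B, AQP4 and FABP7 added almost nothing to this sum, so it does not show a mature astrocyte state. Sums for other cell types were lower throughout. They were 66.7 to 70.0 CPM with vehicle and 46.9 to 50.2 at the high dose for neuronal markers, 161 to 163 and 107 to 114 for oligodendrocyte markers, 156 to 163 and 181 to 193 for microglial markers (TYROBP and C1QA at 0 throughout), and 241 to 250 and 81.8 to 86.0 for epithelial markers (KRT20 and CDX2 at 0 throughout). Endothelial markers stayed under 3 CPM in every library. Although the microglial sum was higher at the high dose, the median log2 fold change of its 3 members with at least 10 counts was -1.14. The part of these marker shifts in the results that follow was not tested. In bulk RNA, fewer cells of a kind and less RNA per cell cannot be told apart.

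Cells that run short of amino acids or accumulate misfolded protein switch on the integrated stress response, in which eIF2-alpha kinases slow general translation while the factor ATF4 is translated more and drives genes of amino acid supply. Misfolded protein inside the endoplasmic reticulum (ER) also triggers the unfolded protein response, whose factors ATF6 and XBP1 raise the folding machinery of that compartment, whereas misfolding in the cytosol is answered by heat shock factor HSF1. In astrocytic cells such stress programmes can run beside NF-kB-driven release of chemokines and NRF2-driven antioxidant defence, and often accompany a pause in the cell cycle.

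A gene was called a differentially expressed gene (DEG) when the Benjamini-Hochberg adjusted p of the DESeq2 Wald test was under 0.05 and the fold change exceeded 1.5. Among the 19453 genes with an adjusted p, 3546 were DEGs (18.2%). Of these, 1684 (8.66% of tested genes) were higher than with vehicle and 1862 (9.57%) lower. The 3 high dose libraries did not overlap the 3 vehicle libraries in 60.4% of tested genes, and 18.1% of tested genes were DEGs without overlap. The median fold was 1.96 among the higher and 2.0 among the lower DEGs, so most calls were of modest size. Only 227 higher and 229 lower DEGs passed 4-fold, and 97 and 59 passed 8-fold. The higher DEGs together took 7.10% ± 0.0333 (SD, n = 3) of all counts with vehicle and 18.4% ± 0.115 at the high dose, and the lower DEGs 8.66% ± 0.0338 and 4.04% ± 0.0622. These shares describe genes chosen for that difference and carry no test. A Wald test of whether the change itself exceeded 1.5-fold called 1491 genes, 766 higher and 725 lower. Of the genes named below as higher or lower, ACVR1, CALR, CCL5, CCNB2, CHRM2, FOS, GRIA1, HSF1, IL7, KIF4A, MBP, MCM6, MSMO1, NQO1, NR4A1, OMA1, RAB5A, SCN3A, SCN8A, SHMT1, SLC7A8, TUBA1B and ZMAT3 were not among them. In what follows, a lone number in parentheses after a gene is its log2 fold change from vehicle to the high dose, levels are counts divided by DESeq2 size factors (normalised counts), and a triplet of levels gives the 3 libraries of a group in the order of their replicate numbers. For every gene whose 6 libraries are given, the vehicle and high dose libraries did not overlap. For genes named by rank this was a condition of being named, so it adds no support to their calls.

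**Figure D1:**
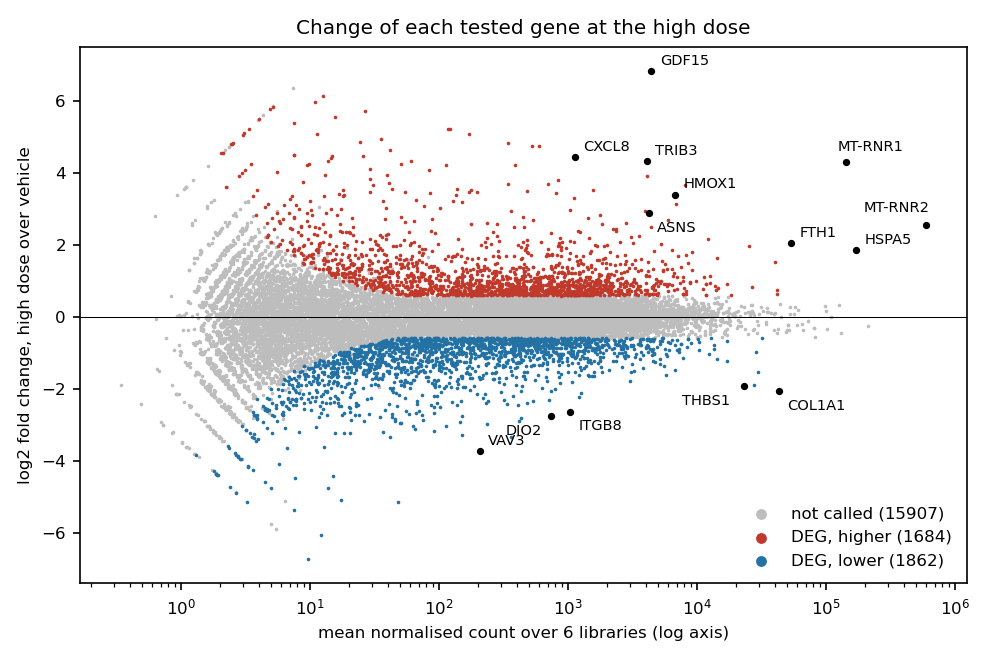
Each point is 1 of 19453 tested genes, with its mean normalised count over the 6 libraries on a log axis and its log2 fold change from vehicle to the high dose on the vertical axis. Red points are the 1684 higher and blue points the 1862 lower DEGs. Among the genes marked, values run from 6.81 for GDF15 to -3.74 for VAV3, and the mitochondrial rRNAs MT-RNR1 and MT-RNR2 and the chaperone HSPA5 lie far to the right.

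The regulators of the integrated stress response rose almost as a set. Of 19 tested regulators, 16 were higher DEGs (84.2%, against 8.66% of all genes), and their median log2 fold change was 1.79, where it was 0.01 over all genes. The pseudokinase TRIB3, which feeds back on ATF4, stood at 438, 345 and 398 normalised counts in the vehicle libraries and 7763, 7770 and 7696 at the high dose (log2 fold change 4.31 with SE 0.0556, DESeq2 adjusted p too small to represent). TRIB3 lies on chromosome 20, 362835 to 397559, plus strand. Vehicle and high dose libraries were thus far apart, and the high dose libraries almost equal. DDIT3, the pro-apoptotic factor CHOP, averaged 515 with vehicle and 7699 at the high dose (3.91), with 31.6% of its exon bases under a gene on the opposite strand, and NUPR1, a small chromatin-binding stress protein, 137 and 1477 (3.43). PPP1R15A, the phosphatase subunit GADD34 that ends the block on translation, rose by 2.94 on the log2 scale, and SESN2, a leucine sensor, by 2.74. ATF4 mRNA itself averaged 2059 with vehicle and 8380 at the high dose (2.03). Outside the list, ADM2, a secreted peptide of the adrenomedullin family, stood at 30.7, 42.9 and 45.8 with vehicle and 736, 742 and 739 at the high dose (log2 fold change 4.21 with SE 0.16, DESeq2 adjusted p 2.32e-150). The 3 tested members that were not called were the lipoprotein receptor VLDLR (0.41), DDIT4L (-0.26) and the transcription factor ATF5 (-0.42), and FGF21, a secreted hormone, had too few counts for an adjusted p. Against the medium dose, 13 of the regulators were higher DEGs, where 4.58% of all tested genes were.

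The enzymes that make serine, glycine, asparagine and proline, and the folate enzymes beside them, rose too. Of 16 such genes, 13 were higher and 1 was lower, with a median log2 fold change of 1.18. Asparagine synthetase, ASNS (chromosome 7, 97851677 to 97872542, minus strand), stood at 1031, 1028 and 1004 normalised counts with vehicle and at 7288, 7527 and 7590 at the high dose (log2 fold change 2.87 with SE 0.0406, DESeq2 adjusted p too small to represent). CBS, which starts the conversion of homocysteine to cysteine, went from 142, 137 and 156 to 881, 887 and 1041 (log2 fold change 2.69 with SE 0.12, DESeq2 adjusted p 6.48e-110), and CTH, the next enzyme of that path, rose by 2.49 on the log2 scale. CBS has a near-identical copy in the assembly, so its level is less certain than that of CTH. Their change was as large as that of the serine enzymes PSAT1 (2.04) and PHGDH (1.47). Mitochondrial folate genes rose, ALDH1L2 by 2.37, MTHFD2 by 1.60, MTHFD1L by 1.10 and SHMT2 by 1.05, with 14.1% of the exon bases of MTHFD2 under a gene on the opposite strand. Their cytosolic counterparts did not: SHMT1 was lower, at 634, 651 and 702 with vehicle and 432, 423 and 441 at the high dose (log2 fold change -0.62 with SE 0.0785, DESeq2 adjusted p 2.86e-14), and MTHFD1 had a log2 fold change of -0.28, short of the fold threshold. Without vehicle replicate 3, SHMT1 was at -0.58 and was no longer called.

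Of 15 tested amino acid transporters, 8 were higher and 1 was lower (median log2 fold change 0.79). The cystine importer SLC7A11 stood at 2861, 2792 and 2719 with vehicle and 10355, 10065 and 9952 at the high dose (log2 fold change 1.86 with SE 0.0326, DESeq2 adjusted p too small to represent), and the leucine importer SLC7A5 from 3500, 3336 and 3432 to 11117, 10460 and 11283 (log2 fold change 1.68 with SE 0.04, DESeq2 adjusted p too small to represent). SLC3A2, the heavy chain that both of them need at the membrane, rose by 1.45. SLC7A8, a second light chain partner of SLC3A2, was lower and went from 239, 201 and 207 to 131, 109 and 123 (log2 fold change -0.83 with SE 0.142, DESeq2 adjusted p 2.36e-08). SLC38A2, a widely used neutral amino acid importer, averaged 9598 and 11028 (0.20) and was not called.

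The cytosolic aminoacyl-tRNA synthetases, which load tRNAs with their amino acids, split into a group that rose and a group that stayed near vehicle. Of 20, 12 were higher DEGs and the other 8 were not called. GARS1, for glycine, stood at 4087, 4198 and 3983 with vehicle and 13898, 14039 and 14778 at the high dose (log2 fold change 1.80 with SE 0.036, DESeq2 adjusted p too small to represent), and AARS1, for alanine, from 3760, 3910 and 3779 to 12558, 12615 and 12639 (log2 fold change 1.72 with SE 0.0274, DESeq2 adjusted p too small to represent). The 12 ran from 1.8 down to 0.78 for LARS1. The 8 lay between 0.12 for VARS1 and -0.30 for HARS1, and KARS1, FARSA, RARS1, FARSB and QARS1 were among those between them. No member therefore fell between 0.12 and 0.78.

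ATF4 and its partners read a composite C/EBP-ATF element in DNA, whose core was searched as TGATGNAA on both strands from 250 bases before to 50 bases after each gene's start in RefSeq promoters of GRCh38.p14, as were the other motifs given here. The core was in 6 of the 16 synthetase promoters in the table, all 6 of them among the synthetases that rose (AARS1, CARS1, IARS1, MARS1, NARS1 and TARS1), and in 3.67% of all 27305 promoters. Among 10456 protein-coding genes with a mean of at least 10 counts, 3.18% of higher DEGs held it, 1.9% of lower DEGs and 1.44% of genes not called. A match is a run of letters and not a shown binding site, and enrichment was not tested. The following stretches, written along the gene from 5′ to 3′ with the core in capitals, show it in genes of the groups above; it stands on the opposite strand in CHAC1, AARS1 and IARS1.
CHAC1: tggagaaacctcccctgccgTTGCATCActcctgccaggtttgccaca
ASNS: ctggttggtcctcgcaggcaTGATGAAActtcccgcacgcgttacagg
MTHFD1L: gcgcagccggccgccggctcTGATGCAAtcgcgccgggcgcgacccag
AARS1: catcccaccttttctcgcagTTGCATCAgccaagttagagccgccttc
IARS1: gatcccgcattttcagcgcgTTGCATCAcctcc
These stretches lie at chr15:40953242-40953289 (plus strand) for CHAC1, chr7:97872449-97872496 (minus strand) for ASNS, chr6:150866337-150866384 (plus strand) for MTHFD1L, chr16:70289666-70289713 (minus strand) for AARS1 and chr9:92293698-92293730 (minus strand) for IARS1. CHAC1, which degrades glutathione, averaged 84.0 with vehicle and 640 at the high dose, and IARS1, for isoleucine, 8153 and 15224, so the 5 genes ranged from 0.90 to 2.94 in log2 fold change with the same core in their promoter windows.

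Chaperones of the ER and of the cytosol moved in opposite directions. Of 24 ER folding and degradation genes, 15 were higher DEGs and the others were not called (median log2 fold change 0.67), whereas of 20 tested cytosolic heat shock genes 7 were lower and 1 was higher (median -0.36). The ER chaperone HSPA5 (chromosome 9, 125234853 to 125241382, minus strand), known as BiP, was the most abundant of them. It stood at 74724, 73372 and 74842 normalised counts with vehicle and 269728, 272080 and 257391 at the high dose (log2 fold change 1.84 with SE 0.0221, DESeq2 adjusted p too small to represent). HSPA5 is the nuclear gene with the largest gain in counts in the comparison. HERPUD1, a membrane protein of ER-associated degradation, went from 1661, 1573 and 1605 to 10324, 10461 and 10216 (log2 fold change 2.68 with SE 0.0383, DESeq2 adjusted p too small to represent). ERN1, a sensor kinase that splices XBP1 mRNA, went from 375, 428 and 388 to 1712, 1714 and 1645 (log2 fold change 2.09 with SE 0.0708, DESeq2 adjusted p 9.08e-189). In both genes the lowest high dose library was several-fold above the highest vehicle library. DNAJB9 rose by 1.95 and XBP1 by 1.27. The abundant calcium-binding chaperones changed less, HSP90B1 from 31432 to 52417 (0.74) and CALR from 33006 to 50965 (0.63). Disulfide isomerases had log2 fold changes of 0.55 for PDIA4, 0.43 for PDIA3, 0.39 for PDIA6 and 0.27 for P4HB, and none of these was called. A gene on the opposite strand covers 25.2% of the exon bases of PDIA6.

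In the cytosol HSPA8, the constitutive HSC70, stood at 24483, 23736 and 23572 with vehicle and 10242, 9953 and 10533 at the high dose (log2 fold change -1.22 with SE 0.0361, DESeq2 adjusted p 3.17e-249). The inducible HSPA1A went from 2364, 2413 and 2459 to 1005, 942 and 999 (log2 fold change -1.30 with SE 0.0544, DESeq2 adjusted p 5.28e-124). HSPA1A and its near-identical copy HSPA1B (-0.87) share reads, so the split between them is uncertain, while both were lower. The co-chaperone DNAJA1 had a log2 fold change of -1.07 and the small heat shock proteins HSPB1 and HSPB8 of -0.89 and -1.04. HSP90AA1 (-0.32) and HSP90AB1 (-0.22) were not called. The exception was the factor HSF1 itself, which went from 1336, 1331 and 1401 to 2048, 2190 and 2288 (log2 fold change 0.68 with SE 0.0506, DESeq2 adjusted p 2.43e-40). In mitochondria, the chaperone HSPA9 went from 8113, 7830 and 8139 to 17375, 17680 and 17140 (log2 fold change 1.12 with SE 0.0247, DESeq2 adjusted p too small to represent) and the protease LONP1 from 1446, 1363 and 1400 to 3155, 3050 and 3133 (log2 fold change 1.15 with SE 0.0445, DESeq2 adjusted p 4.33e-145), whereas HSPD1 (-0.01) and HSPE1 (-0.55) were not called. Of 16 mitochondrial chaperones and proteases, those called were HSPA9, LONP1 and OMA1 (0.74), all higher.

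The ER stress response element, CCAAT and CCACG with 9 bases between them, was in 6 of 22 ER folding promoters and in 0.0806% of all promoters of that length. It was searched on both strands and contains the CCAAT box, itself present in 35.7% of promoters. Over the 10456 genes it was in 0.654% of higher DEGs and 0.0846% of genes not called. The stretches from chaperone genes, with the element in capitals, were as follows.
HSPA5: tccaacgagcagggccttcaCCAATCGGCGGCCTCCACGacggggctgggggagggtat
HSP90B1: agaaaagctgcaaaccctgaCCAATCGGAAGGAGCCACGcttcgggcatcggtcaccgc
CALR: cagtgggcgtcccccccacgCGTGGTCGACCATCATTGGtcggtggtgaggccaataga
XBP1: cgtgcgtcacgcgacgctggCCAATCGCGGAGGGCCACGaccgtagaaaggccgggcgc
They lie at chr9:125241371-125241429 (minus strand) for HSPA5, chr12:103930196-103930254 (plus strand) for HSP90B1, chr19:12938364-12938422 (plus strand) for CALR (where the element is on the opposite strand) and chr22:28800583-28800641 (minus strand) for XBP1. CRELD2 (0.50) and CANX (0.27) also held the element and were not called, so its presence did not separate called from uncalled members of the list.

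Chemokines changed in both directions, with those that attract neutrophils among the rises. Of 11 tested chemokines, 6 were higher (CXCL1, CXCL2, CXCL3, CXCL5, CXCL8 and CCL5) and 2 lower. The call of CCL5 (0.95) was lost without high dose replicate 2 (DESeq2 adjusted p 0.0909) or vehicle replicate 2 (0.0717). CXCL8 (chromosome 4, 73740519 to 73743716, plus strand), the main neutrophil attractant, stood at 91.2, 104 and 107 normalised counts with vehicle and 2200, 2283 and 2022 at the high dose (log2 fold change 4.42 with SE 0.113, DESeq2 adjusted p too small to represent). CXCL2 went from 3.07, 9.64 and 6.24 to 219, 254 and 245 (log2 fold change 5.21 with SE 0.374, DESeq2 adjusted p 8.05e-43), and CXCL5 rose by 2.64. CXCL1, CXCL2 and CXCL3 resemble each other so closely that RSEM may have moved reads between them. CXCL12, a ligand that retains stem and immune cells, went the other way, from 342, 381 and 376 to 70.6, 76.6 and 82.3 (log2 fold change -2.26 with SE 0.137, DESeq2 adjusted p 2.48e-59), and so did CCL2, a monocyte attractant, from 486, 438 and 511 to 222, 195 and 203 (log2 fold change -1.21 with SE 0.122, DESeq2 adjusted p 3.13e-22). Against the medium dose 5 chemokines were higher and 1 lower, and CXCL8 was 191 ± 24.1 at the medium dose, so that most of its rise lay between 100 and 500 µg/mL.

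Among interleukins and colony-stimulating factors, 9 of 15 were higher and 2 were lower. IL6 stood at 82.0, 85.9 and 69.7 with vehicle and 846, 944 and 871 at the high dose (log2 fold change 3.48 with SE 0.15, DESeq2 adjusted p 7.97e-118), and IL1A from 9.22, 14.0 and 11.4 to 191, 226 and 224 (log2 fold change 4.2 with SE 0.31, DESeq2 adjusted p 1.49e-40). LIF, an IL6-family cytokine, rose from 524 to 2381 (2.18). CSF2 had 3, 3 and 1 counts in the vehicle libraries, a level at which up to 3 counts a library cannot be told from 0, and averaged 69.1 at the high dose, which is at least 23.5-fold higher. IL11, a cytokine of stromal cells, was lower, from 1570, 1580 and 1712 to 901, 816 and 793 (log2 fold change -0.96 with SE 0.0726, DESeq2 adjusted p 2.67e-38), and IL7 fell by 0.99 on the log2 scale. The list's median of 1.55, which was the same with CSF2 at its bound, came to 0.88 over members with a mean of at least 100, so it leans on cytokines of low level.

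Of 18 NF-kB subunits, inhibitors and close targets, 9 were higher and 1 was lower. NFKBIZ went from 98.4, 108 and 81.2 to 362, 386 and 348 (log2 fold change 1.93 with SE 0.153, DESeq2 adjusted p 4.78e-35), and RELB, the subunit of the alternative pathway, from 319, 352 and 328 to 1113, 1047 and 1097 (log2 fold change 1.70 with SE 0.0803, DESeq2 adjusted p 4.49e-98). NFKB2, the partner of RELB, rose by 1.20, and ICAM1, an adhesion protein with 25.4% of its exon bases under a gene on the opposite strand, by 1.68. The classical subunits NFKB1 (-0.05), REL (0.05) and RELA (0.47) and the inhibitor NFKBIA (0.32) were not called. BCL3, a nuclear co-factor of NF-kB, was lower, from 1036, 1194 and 1220 to 553, 516 and 614 (log2 fold change -1.04 with SE 0.075, DESeq2 adjusted p 4.95e-42). Of 26 interferon genes 5 were higher (19.2%, against 8.66% of all genes), 1 was lower and 20 were not called, with a median of 0.11. IRF1 rose from 535 to 1270 (1.25), with 22.9% of its exon bases under a gene on the opposite strand, and IFIT2 from 146 to 414 (1.50), while ISG15 (-0.14) and MX1 (0.51) were not called.

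An NF-kB site, searched as GGGA, any base and TTTCC on both strands, was in 5 of 10 chemokine promoters and in 0.579% of all promoters. Over the 10456 genes it was in 1.59% of higher DEGs, 0.361% of lower DEGs and 0.531% of genes not called. The 3 CXCL stretches below show, beside the site in capitals, how alike the paralogs are around it.
CXCL1: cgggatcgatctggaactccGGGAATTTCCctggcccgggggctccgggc
CXCL2: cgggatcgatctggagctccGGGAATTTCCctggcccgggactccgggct
CXCL3: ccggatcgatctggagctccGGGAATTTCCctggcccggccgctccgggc
IL6: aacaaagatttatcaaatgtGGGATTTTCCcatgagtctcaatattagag
NFKBIZ: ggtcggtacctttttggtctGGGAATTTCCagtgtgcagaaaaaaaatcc
They lie at chr4:73869294-73869343 (plus strand) for CXCL1, chr4:74099244-74099293 (minus strand) for CXCL2, chr4:74038739-74038788 (minus strand) for CXCL3, chr7:22727107-22727156 (plus strand) for IL6 and chr3:101827747-101827796 (plus strand) for NFKBIZ. NFKB1, REL and NFKBIA carried a match too and were not called.

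**Figure D2:**
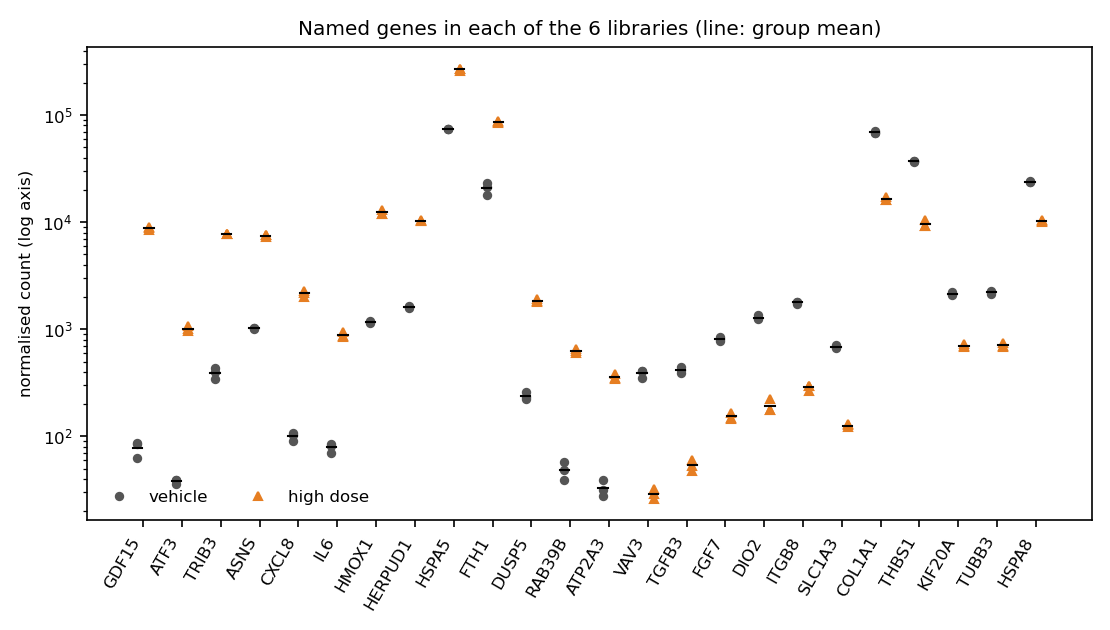
Normalised counts of 24 named genes on a log axis, with circles for the 3 vehicle libraries, triangles for the 3 high dose libraries and a line at each group mean. From GDF15 to ATP2A3 every triangle lies above every circle, and from VAV3 to HSPA8 every triangle lies below, with the widest gap in GDF15 (log2 fold change 6.81). The naming rule required that the groups do not overlap.

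Of 30 tested targets of NRF2, the antioxidant factor, 12 were higher and 2 lower (median log2 fold change 0.34). The haem-degrading enzyme HMOX1 stood at 1177, 1155 and 1198 with vehicle and 11976, 11990 and 13065 at the high dose (log2 fold change 3.39 with SE 0.0458, DESeq2 adjusted p too small to represent). The ferritin light chain FTL went from 21317, 19714 and 21122 to 55725, 58545 and 63981 (log2 fold change 1.52 with SE 0.0656, DESeq2 adjusted p 6.99e-117), and the heavy chain FTH1 from 17903, 21146 and 23354 to 86034, 84872 and 87601 (log2 fold change 2.05 with SE 0.0915, DESeq2 adjusted p 2.36e-109). FTH1 has many processed copies and 63.2% of its exon bases lie under genes on the opposite strand, so its level is less certain than that of FTL. GCLC, the catalytic subunit of glutathione synthesis, rose by 1.98, while its partner GCLM (0.47) was not called. NQO1, a classical marker of NRF2, rose from 3115 to 4792 (0.62), with 19.4% of its exon bases under a gene on the opposite strand. The pentose phosphate genes on the list, PGD (0.34), TKT (0.26) and TALDO1 (0.32), were not called. Of 9 tested metallothioneins and zinc transporters 2 were higher and 1 was lower. MT2A rose from 4504 to 7410 (0.72) and SLC39A14, an importer of zinc and iron, from 4222 to 7875 (0.90), whereas MT1X (0.03) and MT1E (0.02) were not called.

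Of 33 autophagy and lysosome genes, 7 were higher (21.2%, against 8.66% of all genes) and the others were not called (median 0.25). SQSTM1, the cargo receptor p62, went from 9745, 10497 and 10726 to 39111, 40445 and 41319 (log2 fold change 1.96 with SE 0.0307, DESeq2 adjusted p too small to represent), with 22.4% of its exon bases under a gene on the opposite strand. MAP1LC3B, which coats the autophagosome membrane, rose by 1.36 and the cholesterol exporter of lysosomes NPC1 by 1.21. The lysosomal membrane proteins LAMP1 (0.23) and LAMP2 (0.15) and the factor TFEB (-0.41) were not called. The CLEAR E-box TCACGTGA, which TFEB and its kin read, was in 3.27% of higher DEGs, 2.01% of genes not called and 0.452% of lower DEGs among the 10456 genes, and in 1.04% of all promoters.

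**Figure D3:**
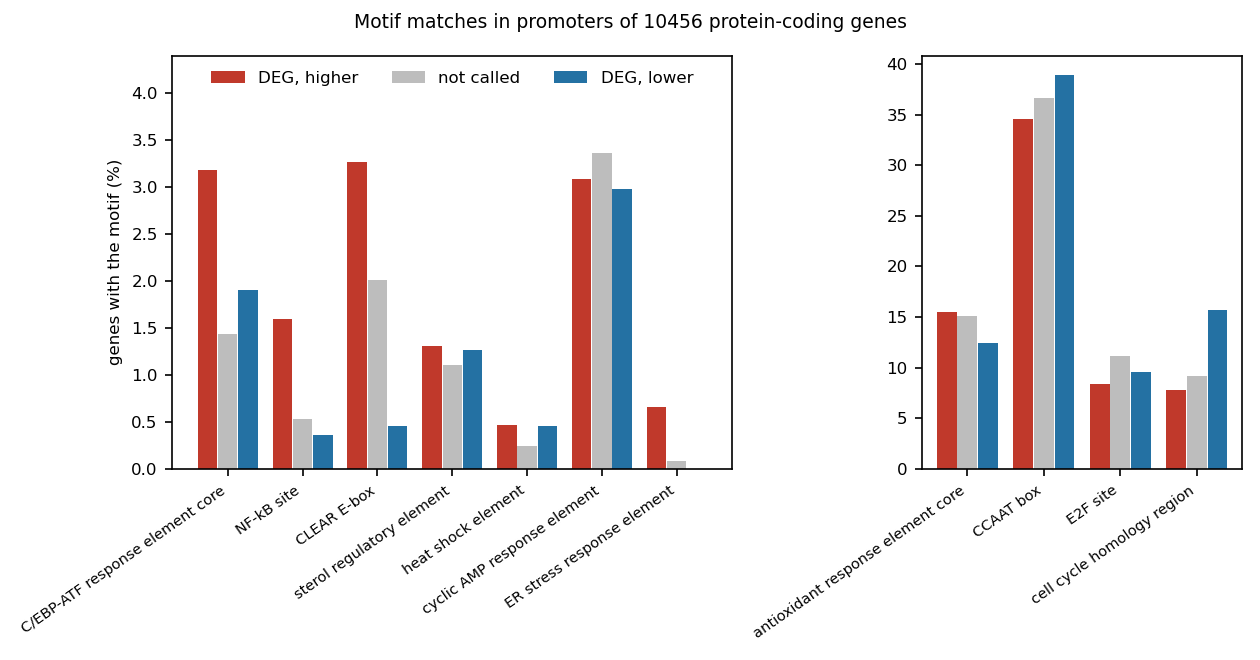
Bars give the percentage of protein-coding genes with a mean of at least 10 counts whose promoter window holds each motif, separately for higher DEGs (red, 1070 genes), genes not called (grey, 8279) and lower DEGs (blue, 1107), with rarer motifs on the left axis and commoner ones on the right. The C/EBP-ATF core, the NF-kB site, the CLEAR E-box and the ER stress element were most frequent among higher DEGs, and the cell cycle homology region among lower DEGs (15.7%, against 9.16% of genes not called).

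Of 47 mitotic genes, 32 were lower DEGs (9.57% of all genes) and the other 15 were not called, with a median log2 fold change of -0.75, and of 44 DNA replication genes 17 were lower and 27 were not called (median -0.53). KIF20A, a kinesin of the midzone, stood at 2207, 2098 and 2150 with vehicle and 734, 677 and 698 at the high dose (log2 fold change -1.62 with SE 0.0513, DESeq2 adjusted p 9.27e-216). MKI67, which coats mitotic chromosomes, went from 5647, 5418 and 5639 to 2244, 1917 and 2033 (log2 fold change -1.43 with SE 0.0429, DESeq2 adjusted p 3.57e-243). The groups were apart in both, which the naming rule required. RRM2, the regulated subunit of ribonucleotide reductase, went from 4629, 4426 and 4349 to 1794, 1753 and 1830 (log2 fold change -1.32 with SE 0.0383, DESeq2 adjusted p 2.74e-257), and the origin-binding ORC1 from 334, 343 and 349 to 160, 132 and 131 (log2 fold change -1.29 with SE 0.119, DESeq2 adjusted p 4.16e-26). The MCM helicase subunits did not move alike: MCM3 (-1.22), MCM4 (-0.91) and MCM6 (-0.67) fell, while MCM2 (-0.44), MCM5 (-0.12) and MCM7 (-0.30) were not called. CDC6 (0.33), the factor FOXM1 (-0.32) and CDC20 (-0.56) were not called either.

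The cell cycle homology region TTTGAA, an element of late cell cycle promoters, was in 27 of 40 mitotic promoters. It was in 15.7% of lower DEGs, 9.16% of genes not called and 15.4% of all promoters. An E2F site, TTTNNCGC, was in 20 of 37 replication promoters and in 6.9% of all promoters. Among the 10456 genes, 9.58% of lower DEGs held the E2F site, fewer than the 11.1% of genes not called. The homology region is shown in capitals for 4 mitotic genes.
CCNB2: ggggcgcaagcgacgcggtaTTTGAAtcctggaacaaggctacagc
PLK1: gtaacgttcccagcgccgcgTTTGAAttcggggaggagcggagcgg
KIF4A: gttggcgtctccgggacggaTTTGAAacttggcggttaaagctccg
CENPA: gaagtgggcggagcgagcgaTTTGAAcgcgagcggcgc
They lie at chr15:59105097-59105142 (plus strand) for CCNB2, chr16:23678840-23678885 (plus strand) for PLK1, chrX:70290050-70290095 (plus strand) for KIF4A and chr2:26786018-26786055 (plus strand) for CENPA. CCNB2 (-0.64), PLK1 (-0.79) and KIF4A (-0.68) were lower DEGs and CENPA (-0.49) was not called.

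Of 24 tested p53 genes, 9 were higher and 2 lower (median 0.38). GADD45A, a growth arrest gene, stood at 705, 749 and 806 with vehicle and 3879, 4070 and 3914 at the high dose (log2 fold change 2.39 with SE 0.0559, DESeq2 adjusted p too small to represent), and TNFRSF10B, the TRAIL death receptor DR5, from 1281, 1227 and 1238 to 5904, 6035 and 5725 (log2 fold change 2.24 with SE 0.0407, DESeq2 adjusted p too small to represent). Those genes are also known targets of the stress factors ATF4 and CHOP. CDKN1A, the cell cycle inhibitor p21, rose from 449 to 1216 (1.44), whereas the p53 targets MDM2 (0.44), FDXR (0.02), RRM2B (-0.04) and SESN1 (-0.03) were not called and ZMAT3 was lower, from 1871 to 1146 (-0.71). Within the BCL2 family, 5 of 15 were higher and 1 was lower. The BH3-only members PMAIP1 (NOXA) and BBC3 (PUMA) rose, PMAIP1 from 888, 895 and 876 to 2490, 2713 and 2627 (log2 fold change 1.56 with SE 0.0558, DESeq2 adjusted p 1.06e-169) and BBC3 from 6.9 to 79.9 (3.55). The survival members BCL2 (1.22) and BCL2L1 (0.70, with 41.3% of its exon bases under a gene on the opposite strand) rose as well, and the effectors BAX (0.18) and BAK1 (0.05) were not called.

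Of 31 collagens and matrix proteins, 12 were lower and the others were not called (median -0.37). COL1A1 (chromosome 17, 50184101 to 50201632, minus strand) stood at 68223, 71542 and 68185 normalised counts with vehicle and 17349, 16161 and 16168 at the high dose (log2 fold change -2.07 with SE 0.0355, DESeq2 adjusted p too small to represent), the largest loss of counts in the comparison. COL1A2, the second chain of the same collagen, went from 44509, 43958 and 42743 to 12425, 11595 and 11301 (log2 fold change -1.89 with SE 0.0522, DESeq2 adjusted p 2.12e-285), and COL5A1 from 43778, 45605 and 44246 to 16039, 14582 and 15495 (log2 fold change -1.54 with SE 0.0297, DESeq2 adjusted p too small to represent). The medium dose stood much nearer to vehicle, with COL1A1 at 51925 ± 2078. THBS1, a matrix glycoprotein that activates TGF-beta, went from 37629, 36320 and 36989 to 10420, 9253 and 9265 (log2 fold change -1.94 with SE 0.0379, DESeq2 adjusted p too small to represent). Basement membrane collagens COL4A1 (-0.36) and COL4A2 (-0.19), the type VI chains COL6A1 (0.12) and COL6A2 (0.32) and fibronectin, FN1 (-0.01), were not called. The 31 genes took 2.91% ± 0.0219 of counts with vehicle and 1.88% ± 0.0186 at the high dose (SD, n = 3, exact permutation p = 0.1, two-sided, the smallest that 3 against 3 libraries can give). Of 27 matrix proteases and inhibitors 6 were higher (22.2%, against 8.66% of all genes) and 1 was lower (3.7%, against 9.57%). ADAMTS6 went from 330, 371 and 390 to 1379, 1376 and 1421 (log2 fold change 1.93 with SE 0.0719, DESeq2 adjusted p 1.97e-157), and the sheddase ADAM17 from 943, 885 and 917 to 2163, 2152 and 2168 (log2 fold change 1.24 with SE 0.0508, DESeq2 adjusted p 7.88e-130).

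In the BMP and TGF-beta pathway 12 of 35 genes were lower and 4 were higher. Among ligands, TGFB3 stood at 447, 391 and 416 with vehicle and 60.2, 47.7 and 53.3 at the high dose (log2 fold change -2.97 with SE 0.148, DESeq2 adjusted p 7.68e-88), and BMP4 averaged 211 and 40.5 (-2.37), while TGFB1 (-0.36) was not called. Of the receptors, BMPR2 fell (-0.81), ACVR1 rose (0.65) and TGFBR1 (0.13) and TGFBR2 (-0.32) were not called. The secreted BMP antagonist GREM1 went from 314, 322 and 304 to 1390, 1434 and 1425 (log2 fold change 2.18 with SE 0.0745, DESeq2 adjusted p 7.16e-186). Target genes that BMP signalling raises, ID1 (-0.97), ID3 (-1.50), ID4 (-1.51) and SMAD6 (-1.69), fell, whereas SMAD7 (-0.34), an inhibitory SMAD, was not called. Against the medium dose ID1 was at a log2 fold change of -1.04 and ID3 at -1.39, so nearly all of their change lay between the medium and the high dose.

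Of 12 tested tubulins, 6 were lower and the others were not called. TUBB3 stood at 2131, 2228 and 2276 with vehicle and 739, 700 and 682 at the high dose (log2 fold change -1.65 with SE 0.0609, DESeq2 adjusted p 4.89e-159), and TUBA4A from 2152, 2111 and 2099 to 916, 839 and 861 (log2 fold change -1.29 with SE 0.0488, DESeq2 adjusted p 7.36e-151), with 20.0% of its exon bases under a gene on the opposite strand. TUBA1B, the most abundant of the 6, went from 37903, 37869 and 38807 to 25414, 24861 and 25953 (log2 fold change -0.59 with SE 0.021, DESeq2 adjusted p 5.33e-170). Its call was lost without high dose replicate 2 (-0.57) or vehicle replicate 3 (-0.58), and 44% of its exon bases lie under a gene on the opposite strand. The 12 genes took 0.623% ± 0.00404 of counts with vehicle and 0.407% ± 0.00846 at the high dose (SD, n = 3, exact permutation p = 0.1). Tubulin genes resemble each other and share reads. FLNC, an actin cross-linker, went from 20137, 19834 and 19760 to 8923, 8581 and 8843 (log2 fold change -1.18 with SE 0.0377, DESeq2 adjusted p 6.37e-213).

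**Figure D4:**
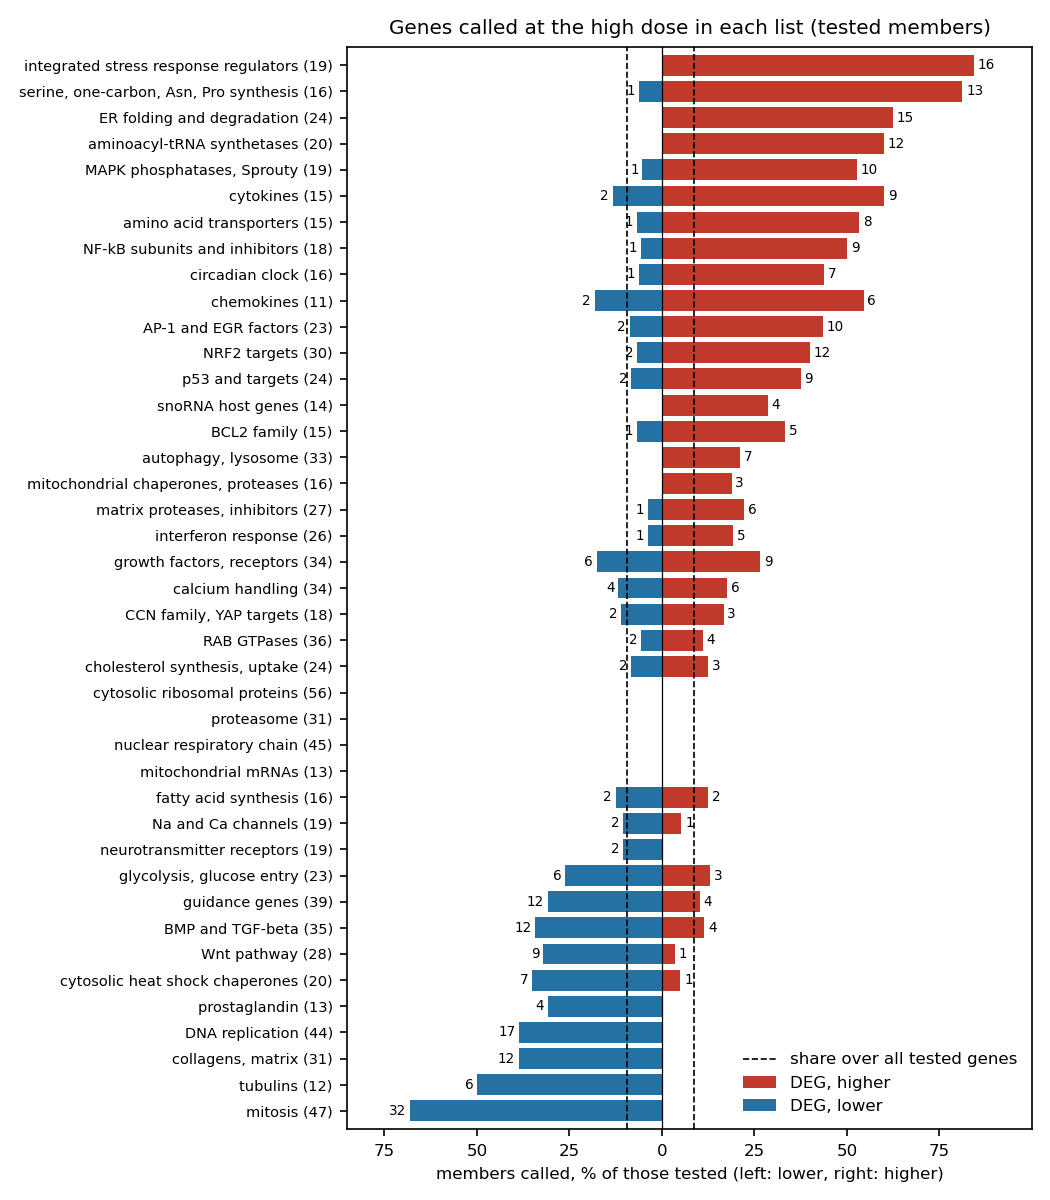
Bars give the percentage of tested members of each gene list that were higher (red, to the right) or lower (blue, to the left) DEGs at the high dose, with the number of genes at the bar end and the number tested after the name. Dashed lines mark the share over all tested genes, 8.66% higher and 9.57% lower. Stress response regulators (16 of 19 higher) and mitotic genes (32 of 47 lower) lie at the ends.

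Of 19 dual-specificity phosphatases, Sprouty proteins and related feedback inhibitors of the MAP kinase cascade, 10 were higher and 1 was lower (median 0.93). DUSP5, a nuclear ERK phosphatase, stood at 235, 223 and 262 with vehicle and 1831, 1922 and 1797 at the high dose (log2 fold change 2.95 with SE 0.0862, DESeq2 adjusted p 1.69e-254). PHLDA1 went from 4543, 4180 and 4653 to 20562, 19880 and 19488 (log2 fold change 2.16 with SE 0.0421, DESeq2 adjusted p too small to represent), and SPRY2 and SPRY4 rose by 1.69 and 1.36. Of the AP-1, EGR and immediate early factors, 10 of 23 were higher and 2 lower. KLF4 went from 109, 110 and 126 to 741, 796 and 795 (log2 fold change 2.76 with SE 0.125, DESeq2 adjusted p 1.43e-106), MAFF rose by 2.05 and MYC from 921 to 2797 (1.60). IER3 (3.45), with 38.9% of its exon bases under a gene on the opposite strand, and NR4A1 (1.05) rose as well. FOS averaged 36.6 and 16.2 (-1.18) and was lower, as was EGR3 (-1.24), and EGR1 (0.10) and JUN (0.42) were not called.

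Growth factors and their receptors changed both ways, with 9 of 34 higher and 6 lower (26.5% and 17.6%, against 8.66% and 9.57% over all genes). VEGFA averaged 5996 and 11738 (0.97). FGF7, a growth factor made by mesenchymal cells, went from 843, 817 and 778 to 166, 150 and 147 (log2 fold change -2.41 with SE 0.0985, DESeq2 adjusted p 6.24e-130), and the PDGF receptor PDGFRA from 587, 611 and 563 to 248, 231 and 191 (log2 fold change -1.40 with SE 0.102, DESeq2 adjusted p 6.1e-42). PDGFRB (-1.15) and the ligand PDGFD (-1.76) fell too, whereas EGFR (0.28), MET (0.03) and FGFR1 (0.21) were not called.

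Of 11 tested astrocyte markers, 2 were lower (SLC1A3 and NES), 1 was higher and 8 were not called. The higher one was the lineage factor OLIG2, which had 2, 3 and 0 counts in the vehicle libraries and averaged 24.5 normalised counts at the high dose, at least 8.34-fold higher. Of 7 tested neuronal markers SNAP25 was lower and 6 were not called, and of 3 oligodendrocyte markers MBP (0.85), a protein of myelin, was higher and 2 were not called. Of 3 tested microglial markers 2 were lower, PTPRC (-1.71) among them, and 1 was not called. The share called was 27.3% of astrocyte and 14.3% of neuronal markers, against 18.2% of all tested genes. With 3 tested members each, the oligodendrocyte and microglial lists are too small for a share to be read. SLC1A3, the glutamate transporter GLAST of astrocytes, stood at 671, 685 and 714 with vehicle and 127, 122 and 130 at the high dose (log2 fold change -2.45 with SE 0.107, DESeq2 adjusted p 3.89e-115). NES, the progenitor filament nestin, went from 212, 227 and 204 to 60.2, 73.0 and 60.8 (log2 fold change -1.72 with SE 0.16, DESeq2 adjusted p 6.19e-26), and SNAP25, a vesicle fusion protein of neurons, from 687, 726 and 698 to 152, 171 and 178 (log2 fold change -2.07 with SE 0.101, DESeq2 adjusted p 3.72e-91). No library of the high dose reached the vehicle range in any of the 3, which the naming rule required. DIO2, which activates thyroid hormone in glia, went from 1357, 1265 and 1236 to 222, 177 and 175 (log2 fold change -2.76 with SE 0.0885, DESeq2 adjusted p 3.29e-211), and ITGB8, an integrin subunit that releases active TGF-beta in the brain, from 1812, 1731 and 1804 to 298, 268 and 296 (log2 fold change -2.64 with SE 0.0861, DESeq2 adjusted p 1.8e-203). The long noncoding RNAs LINC02593, from 258, 279 and 250 to 46.3, 43.2 and 27.1 (-2.77), and MIAT, from 160, 198 and 165 to 42.8, 24.3 and 27.1 (-2.50), fell as well, and MIAT has 13.5% of its exon bases under a gene on the opposite strand.

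Axon guidance and Wnt genes leaned downward. Of 39 guidance genes 12 were lower and 4 higher (median -0.40), and of 28 Wnt genes 9 were lower and 1 higher (median -0.35). The ephrin receptors EPHA5, which went from 893, 923 and 916 to 362, 362 and 401 (log2 fold change -1.28 with SE 0.0792, DESeq2 adjusted p 5.69e-57), and EPHA4 (-1.12) fell, and so did the Frizzled receptors FZD4, from 320, 314 and 336 to 127, 135 and 174 (-1.15), and FZD2 (-1.01). Of the exon bases of FZD4, 18.9% lie under a gene on the opposite strand. UNC5B, a netrin receptor, rose from 116 to 280 (1.27), whereas its relative UNC5C averaged 75.2 and 10.7 (-2.80). NRP1 (-0.42), the secreted Wnt inhibitor DKK1 (0.02) and LRP6 (-0.45) were not called.

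Aconitum alkaloids are known to act on voltage-gated sodium channels. Of 19 sodium and calcium channel genes with an adjusted p, 1 was higher and 2 were lower, a share near that over all genes. SCN8A stood at 79.9, 88.5 and 114 with vehicle and 200, 186 and 175 at the high dose (log2 fold change 0.99 with SE 0.163, DESeq2 adjusted p 6.06e-09), and SCN3A from 284, 300 and 267 to 164, 177 and 156 (log2 fold change -0.77 with SE 0.117, DESeq2 adjusted p 2.75e-10). SCN9A averaged 112 and 98.9 and CACNA1C 621 and 565, and neither was called. Of 34 calcium handling genes, 6 were higher and 4 lower (17.6% and 11.8%, against 8.66% and 9.57% over all genes). The ER calcium pump ATP2A3 went from 27.7, 31.5 and 39.5 to 344, 350 and 381 (log2 fold change 3.45 with SE 0.189, DESeq2 adjusted p 4.04e-73), while its ubiquitous relative ATP2A2 averaged 8978 and 9557 (0.09) and was not called. The calcineurin regulators went apart, RCAN1 from 2202, 2120 and 2097 to 6133, 6032 and 6237 (log2 fold change 1.52 with SE 0.0349, DESeq2 adjusted p too small to represent) and RCAN2 from 1321, 1230 and 1300 to 313, 321 and 318 (log2 fold change -2.02 with SE 0.0708, DESeq2 adjusted p 3.45e-176). Plasma membrane pumps did likewise, with ATP2B1 at 0.94 and ATP2B4 at -0.96. Neurotransmitter receptors were mostly near the floor of detection, and of 19 with an adjusted p the 2 called, the AMPA receptor subunit GRIA1 (-0.85) and the muscarinic receptor CHRM2, were lower. That share, 10.5%, was near the 9.57% of all genes that were lower. CHRM2 averaged only 5.35 and 0.612 normalised counts and was no longer called under most alternatives, as when only the 6 libraries were fitted (adjusted p 0.072). Of 36 RAB GTPases, 4 were higher, 2 were lower and 30 were not called. The share called, 16.7%, was near the 18.2% of all genes. Among those higher, RAB39B, a gene of neuronal vesicle traffic, went from 38.9, 57.8 and 48.9 to 629, 607 and 662 (log2 fold change 3.69 with SE 0.153, DESeq2 adjusted p 1.74e-126), while RAB5A (0.70) and RAB32 (0.88) rose less. RAB7A (0.32), the ubiquitous late endosome member, was not called.

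Of 24 cholesterol genes 3 were higher than vehicle and 2 lower, shares near the 8.66% and 9.57% over all genes. Against the medium dose 6 were higher and none lower, where 4.58% of all tested genes were higher. INSIG1, a sterol sensor, stood at 2566, 2755 and 2631 with vehicle, 2279 ± 69.5 in the medium dose libraries and 5696, 5776 and 5917 in the high dose libraries (log2 fold change 1.13 with SE 0.0404, DESeq2 adjusted p 1.12e-169). MSMO1 (0.68), a demethylase of the pathway, rose. Of 16 fatty acid synthesis genes 2 were higher and 2 lower, 12.5% each way, against 8.66% and 9.57% over all genes. The desaturase SCD, which makes monounsaturated fatty acids, went from 5352, 5194 and 5270 to 10146, 10315 and 10658 (log2 fold change 0.98 with SE 0.0303, DESeq2 adjusted p 2.83e-225), while FASN (0.18) and ACACA (-0.05) were not called.

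Glycolytic enzymes were mostly lower or not called, with 6 of 23 lower and 3 higher (median -0.38). LDHA, which makes lactate, stood at 38934, 37224 and 37732 with vehicle and 19573, 19162 and 19004 at the high dose (log2 fold change -0.98 with SE 0.0251, DESeq2 adjusted p too small to represent). PGK1 (-0.69), PGAM1 (-0.73) and the regulatory PFKFB3 (-0.85) and PFKFB4 (-1.0) fell. The glucose entry genes SLC2A3, from 698, 680 and 683 to 1601, 1523 and 1604 (log2 fold change 1.20 with SE 0.0586, DESeq2 adjusted p 3.65e-91), and HK2 (1.17) rose, while SLC2A1 (0.17) was not called. Of 16 circadian genes 7 were higher and 1 lower. The repressor NR1D1 went from 910, 906 and 945 to 2248, 2290 and 2385 (log2 fold change 1.33 with SE 0.0584, DESeq2 adjusted p 1.27e-112) and averaged 877 at the medium dose, near vehicle, with 18% of its exon bases under a gene on the opposite strand. NPAS2 went from 153, 155 and 167 to 486, 500 and 522 (log2 fold change 1.67 with SE 0.115, DESeq2 adjusted p 1.73e-46). The core genes CLOCK (-0.15), PER2 (0.08) and CRY1 (0.29) were not called. Of the dioxin receptor genes, AHR rose from 2208 to 3628 (0.72), while its target CYP1B1 fell from 3333, 3311 and 3299 to 1468, 1363 and 1405 (log2 fold change -1.23 with SE 0.0418, DESeq2 adjusted p 2.94e-189) and its repressor AHRR from 1029 to 521 (-0.98). Of 13 tested prostaglandin genes the 4 called were lower (30.8%, against 9.57% of all genes), among them the receptor PTGER2, from 648 to 340 (-0.94).

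The 2 mitochondrial rRNAs rose while no mitochondrial mRNA was a DEG. MT-RNR1, the small rRNA, stood at 13706, 13488 and 14351 with vehicle and 273843, 267558 and 277897 at the high dose (log2 fold change 4.30 with SE 0.0518, DESeq2 adjusted p too small to represent), and MT-RNR2, the large rRNA, from 173229, 170590 and 180638 to 1034681, 988874 and 1052622 (log2 fold change 2.55 with SE 0.0464, DESeq2 adjusted p too small to represent). Over the medium dose, however, both had log2 fold changes below 0, of -0.17 and -0.45. They made up 0.932% ± 0.0251 of counts with vehicle and 5.93% ± 0.15 at the high dose, and the sources used here do not give whether the libraries were poly(A)-selected, which bears on rRNA shares. The 13 mitochondrial mRNAs lay between -0.56 for MT-CO2 and 0.08 for MT-ND2. With 0 DEGs among them in DESeq2 and 0 in the edgeR quasi-likelihood test, 8 had an unadjusted p under 0.05 and 7 an adjusted p under 0.05 at a smaller fold, all 7 below vehicle. Their share of counts was 4.21% ± 0.109 with vehicle and 3.26% ± 0.0527 at the high dose (SD, n = 3, exact permutation p = 0.1).

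Other large sets of housekeeping genes held 0 DEGs in DESeq2 and 0 in edgeR. Of 45 nuclear respiratory chain genes, 26 had an unadjusted p under 0.05 and 24 an adjusted p under 0.05 at a smaller fold, 19 of these below vehicle. Of 56 cytosolic ribosomal protein genes the numbers were 30 and 26, with 24 above vehicle, and of 31 proteasome genes 27 and 26, with 25 below. Shifts in these sets were thus common in sign but small, within -0.58 to 0.26 for the respiratory chain, -0.08 to 0.39 for ribosomal proteins and -0.42 to 0.11 for the proteasome on the log2 scale. Ribosomal protein genes took 3.0% ± 0.028 of counts with vehicle and 2.97% ± 0.0604 at the high dose (SD, n = 3, exact permutation p = 0.4). Of 14 host genes of small nucleolar RNAs, whose transcripts are cleared by nonsense-mediated decay, 4 were higher and the others were not called. SNHG15 went from 208, 177 and 182 to 369, 400 and 367 (log2 fold change 1.01 with SE 0.118, DESeq2 adjusted p 1.6e-16), and GAS5 from 1319, 1235 and 1279 to 2115, 2413 and 2125 (log2 fold change 0.80 with SE 0.0564, DESeq2 adjusted p 4.12e-44).

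**Figure D5:**
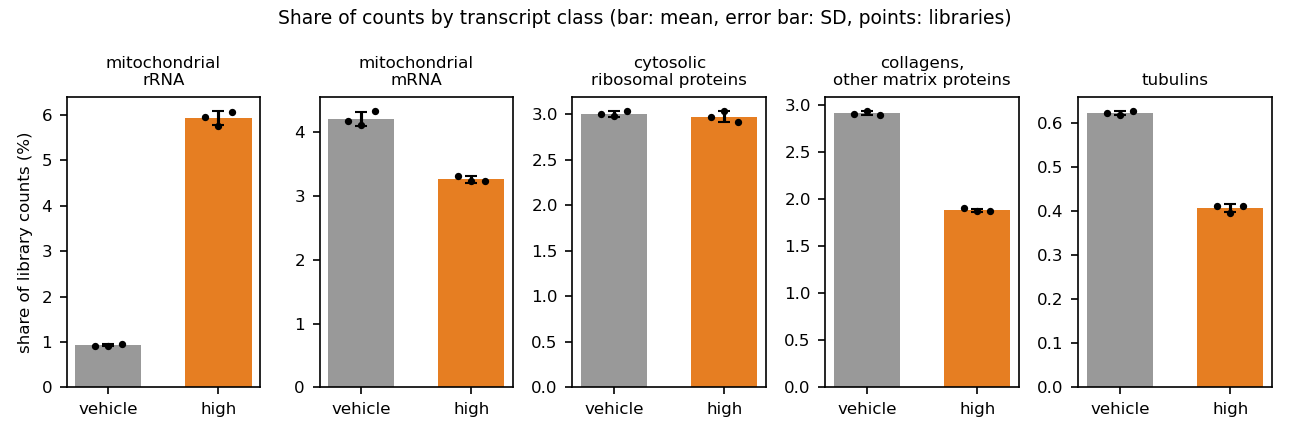
Bars give the mean share of library counts in percent, error bars the SD over 3 libraries and points the libraries, for 5 transcript classes with vehicle (grey) and at the high dose (orange), each on its own axis from 0. Mitochondrial rRNA went from 0.932% to 5.93%, and mitochondrial mRNA, matrix genes and tubulins took smaller shares at the high dose, while cytosolic ribosomal proteins stayed at about 3%.

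Set directly against the medium dose, the high dose gave 1679 DEGs among 16467 tested genes (10.2%). Of these 755 were higher (4.58%) and 924 lower (5.61%). In GDF15, a stress cytokine with the largest log2 fold change among DEGs with a mean of at least 100 counts, means of 3 libraries were 78.0 ± 12.6 with vehicle, 1037 ± 61.1 in the medium and 8795 ± 241 in the high dose group (SD). At the medium dose CXCL8 averaged 191, IL6 154 and DUSP5 436, each nearer to its vehicle than to its high dose level. The amino acid genes ASNS at 4230, CBS at 543 and SLC7A5 at 9521 were already well above vehicle there. From the medium to the high dose their log2 fold changes were 0.82, 0.79 and 0.20, and ASNS and CBS were DEGs. SLC7A11, at 5530, was nearer to its vehicle mean of 2791 than to its high dose mean of 10124. Over the amino acid transporters the median log2 fold change from vehicle was 0.34 at the medium and 0.79 at the high dose. COL1A1 averaged 51925 and THBS1 30278 at the medium dose, nearer to vehicle than to the high dose. Contrasts against vehicle and against the medium dose share the high dose libraries.

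DEGs were not spread evenly over kinds of genes. Among protein-coding genes 9.74% were higher and 10.0% lower, among long noncoding RNAs 5.86% and 9.41%, and among processed pseudogenes 2.93% and 2.79%. These shares cover all tested genes with no minimum count, so differences in level between the kinds were not taken out. Genes with a mean under 10 counts were called least, 2.0% higher and 3.23% lower. Above 10000 counts 9.96% were higher and 6.64% lower, and between 10 and 100 counts 11.5% and 17.4%. When protein-coding genes with a mean of at least 10 counts were cut into 5 classes of like size by their number of exons, 16.6% of those with 1 to 5 exons were lower, where the other classes had between 8.66% and 9.91%. By span on the genome, 13.6% of the class over 102777 bases and 12% of the shortest were lower, against 8.9% to 10.0% between them. Genes with few exons include protocadherins, histones and many receptors. Genes are not independent replicates, and these shares were not tested.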

How the data were processed

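RNA of SW1783 cells was sequenced in 12 libraries, 3 for each of 4 groups, and the 6 libraries of the high dose and vehicle groups were compared. Per the labels, the authors used FastQC 0.11.9, Trim Galore 0.6.5, STAR 2.7.3a and RSEM 1.3.3 with GRCh38, and deposited 1 table of expected counts per Ensembl gene. Expected counts share reads among similar genes, and 8.75% of values were not whole. Whether counting used the strand of the directional libraries is not given in the sources used here. Counts were rounded and fitted with DESeq2 1.42.0 in R 4.3.3 over all 12 libraries with group as the only term, after the study's own test, with DEGs at an adjusted p under 0.05 and a fold over 1.5. DESeq2 gave no adjusted p below a mean of 1.72 counts (5.77 against the medium dose), and levels are counts divided by its size factors. Total counts of 18959098 to 24200565 per library gave a median standard error of 0.0699 on the log2 scale for genes with a mean of at least 100 counts. The fit was tested on simulated counts.

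Symbols came from GENCODE release 44, which held 56558 of 60675 gene IDs (93.2%), and promoters from RefSeq on GRCh38.p14. Genes were named among DEGs with a mean of at least 100 normalised counts and no overlap between groups (2113 genes), by ranks 1 to 12 each way by log2 fold change, ranks 1 to 8 each way by difference in counts, and up to 2 genes each way in each gene list. Other list members were added after their values were seen. They include DEGs as well as members that were not called, and some have means under 100 counts. The members and the lists were chosen with earlier results of these data known. List medians cover members with a mean of at least 10 counts. Shares of counts were compared by exact permutation over libraries. Alternatives were edgeR 4.0.16 (quasi-likelihood), TMM factors, a minimum of 10 counts in 3 libraries, no independent filtering, the 6 libraries alone, no mitochondrial genes, a test against the fold threshold, each replicate left out and a replicate block. The study's low dose group served only the estimate of spread. Some genes that this rule would name are not reported here.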

Additional observations from a re-analysis of the deposited data

How the results depend on the processing

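With each of the 6 libraries left out in turn the number of DEGs against vehicle ran from 3188 to 3367 (1545 to 1627 higher and 1629 to 1740 lower), and against the medium dose from 1459 to 1590 (678 to 725 higher and 781 to 865 lower). The Wald test against the fold threshold itself gave 1491 DEGs (766 higher, 725 lower) against vehicle and 480 (242 higher, 238 lower) against the medium dose, fewer by its construction. The edgeR quasi-likelihood test called 3901 genes, TMM factors 3546, the 6 libraries alone 3381, a minimum of 10 counts 3602, no independent filtering 3393 and the fit without mitochondrially encoded genes 3537. With a replicate block 3297 genes were called against vehicle and 1538 against the medium dose. Deviations of same-numbered high dose and vehicle libraries correlated at 0.0201, -0.03 and -0.0254 over 11264 genes. Pairs with unlike numbers ran from -0.0459 to 0.0713. No pairing by number was seen, which cannot exclude a shared batch. Of 377 list members that were DEGs, 106 lost their call in the test against the fold threshold and 33 under another alternative. No named gene changed sign. The share of counts in cytosolic ribosomal proteins was 0.126 percentage points above vehicle when mitochondrial rRNA was left out of the total, and below vehicle with it. Genes with fewer than 10 counts were seldom called at this depth.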

Other observations

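Some gene families outside the lists stood out when all DEGs were scanned, and were chosen after their values were seen, so they carry no test of their own. Clustered protocadherins are cell surface proteins by which neural cells recognise each other. Of 18 tested beta protocadherins 13 were lower DEGs, 5 were not called and none was higher, where 9.57% of all genes were lower. Of 22 gamma protocadherins 10 were lower and 12 not called, and of 5 alpha protocadherins 1 was lower and 4 not called. PCDHB7 had 152, 161 and 157 normalised counts in the vehicle libraries and 52.1, 38.7 and 34.6 at the high dose (log2 fold change -1.92), and PCDHGC3 averaged 10837 and 4878 (-1.15). Neighbouring protocadherins share long stretches of sequence, so reads may be split between them. Of 13 tested cadherins 6 were lower, 7 were not called, CDH2 (0.01) among them, and none was higher. The lower ones included the mesenchymal CDH11, from 7470, 7189 and 7264 to 3911, 3912 and 3898 (-0.90), and CDH6, from a mean of 849 to 334. Of 14 tested claudins, the sealing proteins of tight junctions, 6 were higher (42.9%, against 8.66% of all genes) and none was lower. CLDN1 went from 112, 103 and 93.7 to 1158, 1383 and 1367 (3.67).

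Krüppel-like factors, a family of zinc finger transcription factors, were higher in 9 of 15 and lower in 1, where 8.66% of all genes were higher. KLF11 went from 100, 116 and 114 to 475, 475 and 467 normalised counts and KLF6 from a mean of 1300 to 4230, with means of 128 and 1757 at the medium dose. Of 39 tested histone genes 16 were lower and 2 higher. The linker histone H1-10 rose from a mean of 476 to 1036 (1.12), with 22.8% of its exon bases under a gene on the opposite strand, whereas the DNA damage histone H2AX fell from a mean of 1071 to 545. Transcripts of most core histones lack a poly(A) tail, and whether the libraries selected for it is not given in the sources used here. Of 31 tested G protein-coupled receptors with GPR symbols, orphan and other, 11 were lower (35.5%, against 9.57% of all genes) and none was higher.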
